A study of Mus musculus with 18 samples.

Results

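Integrin subunit genes were followed in leukemia stem cells sorted from mouse bone marrow. The 10 genes are Itga1, Itga2b, Itga4, Itga5, Itga6, Itgal, Itgam, Itgb1, Itgb2 and Itgb7, out of 54347 genes in the deposited table, and they were selected by symbol with the mutant and control values of these data already in view. Differences between the groups are therefore given for them as descriptions, and support nothing by themselves. The cells came from 5 Prx1-Cxcl12 mutant mice (mutant mice 6, 7, 8, 10 and 12) and 4 Prx1-Cxcl12 wild type mice (control mice 1 to 4), all of strain C57BL/6JRj, and 7000 cells were taken per mouse 30 days after leukemia induction. Each mouse gave 2 technical libraries of polyadenylated RNA, made by a MARS-seq protocol that reads 3' ends and was adapted to bulk RNA. Prx1 is active in limb mesenchyme and its promoter is widely used to target marrow stroma, but how the Cxcl12 allele was altered, the leukemia driver, the sorting markers, the age and the sex of the mice were not given in the sources used here.

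Integrins are cell surface receptors built of an alpha and a beta chain, and the pairing sets the ligand. On blood cells, chains paired with beta 1 or beta 7 bind collagen, laminin, fibronectin, VCAM-1 or MAdCAM-1, chains paired with beta 2 bind ICAMs and are found only on leukocytes, and the alpha IIb and beta 3 pair is the fibrinogen receptor of platelets. In bone marrow these receptors hold haematopoietic cells to stroma and matrix, and CXCL12 acting on CXCR4 raises their affinity.

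Total counts per mouse were 15959033 to 25485913 in mutants and 11766482 to 16785001 in controls, so 3 counts correspond to at most 0.188 CPM in mutants and 0.255 CPM in controls, a floor that covers counting error only. CPM is a gene's share of all counts in a mouse on a common total, scaled by trimmed mean of M-values (TMM) factors, and it is compared between mice for the same gene, not between genes. Markers of leukemic and myeloid progenitors were present in both groups, with the Fc receptor gene Fcgr3 at 397 ± 102 CPM in mutants and 449.6 ± 62.4 CPM in controls, Hoxa9 at 207 ± 25.7 CPM in mutants and 242 ± 77.6 CPM in controls, and Kit at 19.0 ± 2.45 and 25.6 ± 1.99 CPM in mutants and controls (SD, n = 5 and 4). For Kit every mutant was below every control, as in 2.13% of all tested genes (edgeR adjusted p = 0.25). The 13 listed markers summed to 990 to 1142 CPM in mutants and 1121 to 1326 CPM in controls. Of the 11 that were tested, Flt3 alone had a log2 fold change above 0 (1.02, edgeR adjusted p = 0.68), beside 48.3% of all tested genes below 0. Flt3 ranged from 0.42 to 9.69 CPM in mutants and from 0.24 to 2.55 CPM in controls, with medians of 1.58 and 1.62 CPM. Of 11 markers of marrow stroma and endothelium, Kitl and Pdgfra were at 0 in every mouse, and 5 of the other 9 had at most 9 counts summed over the 9 mice. The list summed to 29.0 to 44.1 CPM in mutants and 32.5 to 40.2 CPM in controls, mainly from Runx2, a transcription factor gene of bone cells that blood cells can also express, at 32.6 ± 6.10 CPM in mutants and 36.3 ± 3.39 CPM in controls, and Lepr had 131 counts over all mice. The B and plasma cell list, led by Ighm, summed to 127 to 215 CPM in mutants and 164 to 230 CPM in controls, and the erythroid list, led by Hbb-bs, to 14.2 to 58.1 CPM in mutants and 5.98 to 51.4 CPM in controls.

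All 10 integrin genes passed the filter on low counts in the fit of all genes (12973 genes tested). In that fit, 2 of the 10 were called at an adjusted p under 0.05 by edgeR's quasi-likelihood test with Benjamini-Hochberg adjustment, Itga1 and Itga2b, and 0.0694% of all tested genes were. Both were lower in mutants, as were 0.0462% of all tested genes, and none of the 10 was called higher, as 0.0231% of all tested genes were. Itga1 and Itga2b are also the 2 whose mutants lay wholly below the controls, as in 2.13% of all tested genes, and none of the 10 lay wholly above, as in 1.87%. Log2 fold changes, mutant over control, were below 0 for 7 of the 10 genes and above 0 for 3, with a median of -0.20, and below 0 for 48.3% of all genes tested, with a median of 0.0089. Since the choice of the 10 genes used this contrast, nothing is read from these counts. In bulk RNA of sorted cells, fewer cells of a type and less RNA per cell cannot be told apart.

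**Figure D1:**
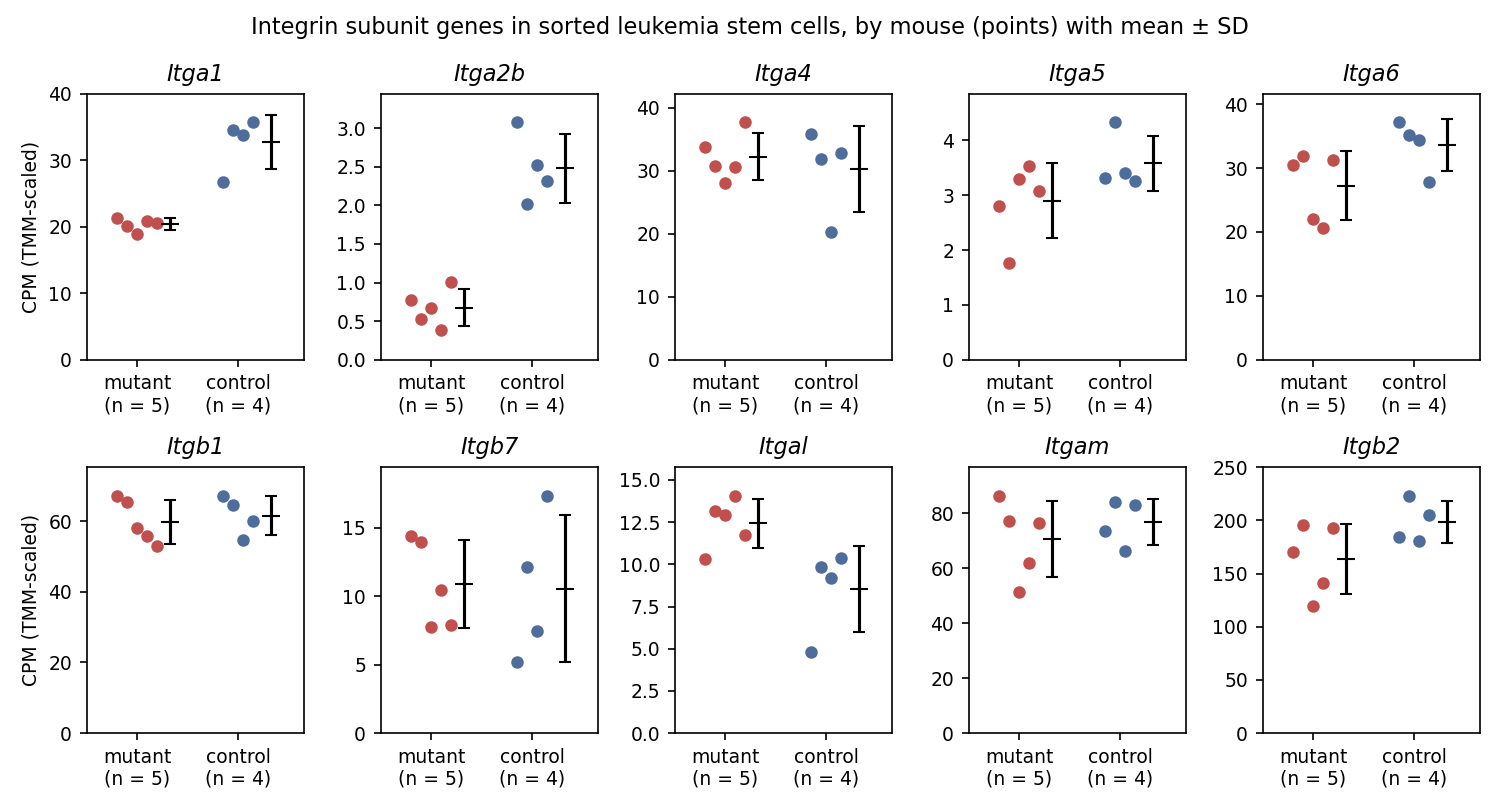
CPM (TMM-scaled, linear axes from 0) of the 10 integrin genes, 1 point per mouse, with mean ± SD beside the points (5 mutants, 4 controls). Itga1 and Itga2b are the 2 genes with every mutant below every control, at 18.9 to 21.3 against 26.8 to 35.7 CPM and at 0.38 to 1.01 against 2.02 to 3.08 CPM.

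The 250 bases before the start sites of Itga1 and Itga2b are shown because these genes were lower together. Both lie on the minus strand and are read 5′ to 3′ from RefSeq's promoter table on GRCm38.p6, chr13:115101965-115102214 for Itga1 and chr11:102469884-102470133 for Itga2b. Capitals mark matches to an ETS-type core.
Itga1: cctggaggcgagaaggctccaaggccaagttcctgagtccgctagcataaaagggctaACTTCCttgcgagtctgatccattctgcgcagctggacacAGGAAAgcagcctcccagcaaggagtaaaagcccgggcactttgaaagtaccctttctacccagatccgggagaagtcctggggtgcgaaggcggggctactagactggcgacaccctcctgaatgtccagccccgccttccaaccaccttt
Itga2b: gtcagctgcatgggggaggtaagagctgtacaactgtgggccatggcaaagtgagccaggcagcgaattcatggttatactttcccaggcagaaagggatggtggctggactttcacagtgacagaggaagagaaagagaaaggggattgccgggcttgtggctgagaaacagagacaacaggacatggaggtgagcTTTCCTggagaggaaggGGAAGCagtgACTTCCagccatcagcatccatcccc

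The ETS-type letters searched were GGAAGT or GGAAGC or CGGAAA or AGGAAA, on both strands. Matches numbered 2 in the Itga1 window, beginning at bases -192 and -152 from the start site, and 3 in the Itga2b window, beginning at -53, -36 and -26, and 56.4% of the 32851 windows of this length in the table hold at least 1. GATA-type letters (AGATAA or TGATAA or AGATAG or TGATAG, both strands) were not found in either window and are in 26.5% of all windows. The letters GGGCGG (GC box, 32.7% of all windows), TGTGGT (RUNX type, 14.0%) and TATAAA (the core of the common promoter box, 12.4%) were also not found in either on either strand. None of the printed matches overlaps another, and a match is a string of letters, not a site. Of the 10 integrin genes, 7 have an entry in that table. Itga6, Itgal and Itgb2 do not. Of the other genes with an entry, none of them called, Itga5 had 6 ETS-type matches and Itgam 2, while Itga4, Itgb1 and Itgb7 had 0. The GENCODE span of Itga2b starts upstream of the RefSeq start site used here, so most of the printed Itga2b window lies inside that span.

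Itga1 (ENSMUSG00000042284, chromosome 13, 114953096 to 115101964, GRCm38) encodes the alpha chain of the collagen receptor alpha 1 beta 1. It stood at 21.3, 20.1, 18.9, 20.9 and 20.5 CPM in mutant mice 6, 7, 8, 10 and 12, and at 26.8, 34.5, 33.8 and 35.7 CPM in control mice 1, 2, 3 and 4. Every mutant lay below every control, and the mutants were close together while control 1 was the lowest of its group. The means were 20.3 ± 0.92 CPM in mutants and 32.7 ± 4.03 CPM in controls (SD, n = 5 and 4), a fold of 0.621 (log2 fold change -0.69, SE 0.10). The underlying estimated counts were 346 to 500 in mutants and 339 to 603 in controls.

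The values of Itga1 in single libraries, whose counts were summed above, add no support of their own. The 10 mutant libraries had 15.1 to 23.4 CPM and the 8 control libraries 25.9 to 39.2 CPM, here without TMM factors. The libraries of a mouse share their cells and are not replicates. The fold change was smaller in the first libraries (log2 fold change -0.52) than in the second (-0.89), and the gene was not called in either set alone.

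**Figure D2:**
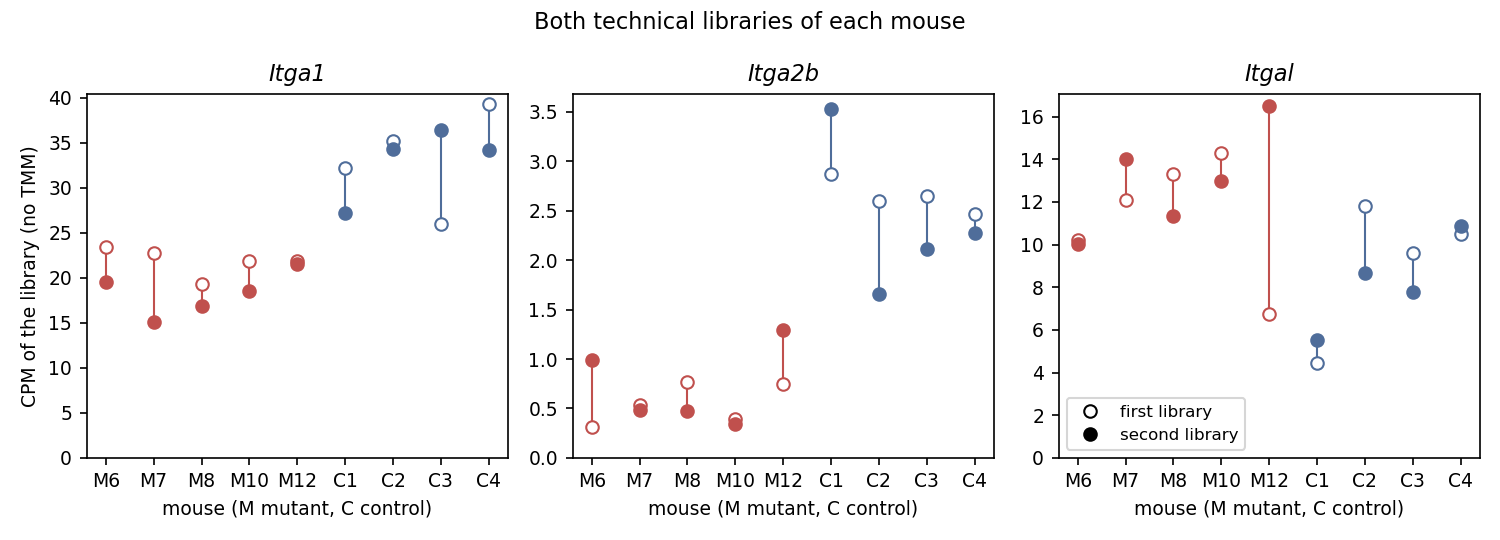
CPM per library (no TMM factors, linear axes from 0) of Itga1, Itga2b and Itgal, with the libraries of a mouse joined by a line, mutants (M) left and controls (C) right, open circles for the first and filled circles for the second library. Mutant and control libraries do not overlap for Itga1 (15.1 to 23.4 against 25.9 to 39.2) or Itga2b (0.31 to 1.29 against 1.66 to 3.53), and they overlap for Itgal.

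The counts of Itga1 are uncertain because another gene shares its first exons. Gm49395, on the same strand, has a protein-coding transcript that begins 43 bases after the Itga1 start site and runs into the gene Pelo, which lies inside Itga1. Of all stretches of 31 bases in Itga1 transcripts, 3.39% are also in Gm49395 transcripts, and 36.6% of those of Gm49395 are in Itga1. None is shared with Pelo or with the antisense gene Gm10734, and no annotated gene overlaps the last 1000 bases before the 3' end of the protein-coding Itga1 transcript. Estimated counts can be fractional where a read could come from more than 1 gene, and 17 of the 18 library values of Itga1 were not whole.

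The groups overlapped for Gm49395 itself, at 58.2, 62.9, 46.8, 52.8 and 66.2 CPM in mutant mice 6, 7, 8, 10 and 12 and at 60.7, 57.7, 62.3 and 59.3 CPM in control mice 1 to 4. Its log2 fold change was -0.06 (95% interval -0.29 to 0.16, edgeR adjusted p = 0.865). Itga1 made up 23.7 to 28.8% of the counts of both genes together in mutants and 30.6 to 37.6% in controls. This share is built from the same Itga1 values and adds no support of its own. The sum of both was 77.7 ± 8.28 CPM in mutants and 92.7 ± 3.86 CPM in controls (SD, n = 5 and 4). It ranged from 65.7 to 86.7 CPM in mutants and from 87.4 to 96.1 CPM in controls, and it too contains the Itga1 values. How reads were divided between the genes was not tested.

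**Figure D3:**
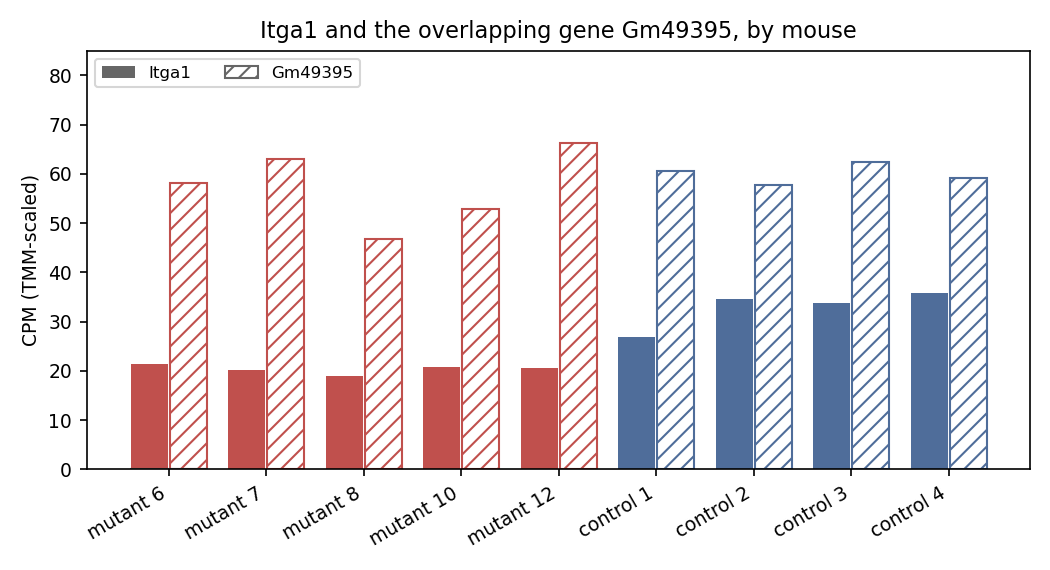
CPM (TMM-scaled) of Itga1 (solid bars) and of Gm49395 (hatched bars), which share first exons, in each of the 5 mutant and 4 control mice. Itga1 is at 18.9 to 21.3 CPM in mutants and 26.8 to 35.7 CPM in controls, whereas Gm49395 ranges from 46.8 to 66.2 CPM in mutants, around the 57.7 to 62.3 CPM of controls.

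Itga2b (ENSMUSG00000034664, chromosome 11, 102453297 to 102470122) encodes alpha IIb, or CD41, of megakaryocytes, platelets, mast cells and early haematopoietic progenitors. Its counts were 14, 13, 16, 7 and 17 in mutant mice 6, 7, 8, 10 and 12, and 39, 34, 37 and 39 in control mice 1 to 4. On the CPM scale these were 0.77, 0.52, 0.67, 0.38 and 1.01 in the same mutants and 3.08, 2.02, 2.52 and 2.31 in the same controls. Every mutant was below every control, although the mutants' total counts were mostly larger. The means were 0.67 ± 0.24 CPM in mutants and 2.48 ± 0.45 CPM in controls, a fold of 0.268 (log2 fold change -1.90, SE 0.30), and all 18 library values were whole. Single libraries held 2 to 12 counts in mutants and 11 to 28 counts in controls.

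The beta partner of Itga2b, Itgb3, was measured but did not pass. Itgb3 had 6.06, 4.98, 5.22, 4.35 and 4.39 CPM in mutant mice 6, 7, 8, 10 and 12 and 5.13, 7.96, 8.24 and 4.74 CPM in control mice 1 to 4. The groups overlapped, since controls 1 and 4 were in the range of the mutants, and the log2 fold change was -0.38 (95% interval -0.81 to 0.05, edgeR adjusted p = 0.544).

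Other megakaryocyte and platelet genes were sparse. Of 11 listed markers 9 had a count, Gp1ba and Treml1 were at 0 in every mouse, and the platelet chemokine gene Pf4 had 16 counts over all 9 mice. The summed level of the list was 26.6 to 37.0 CPM in mutants and 32.9 to 47.2 CPM in controls, most of it from the platelet glycoprotein gene Gp1bb at 22.1 ± 4.93 CPM in mutants and 29.0 ± 4.76 CPM in controls (edgeR adjusted p = 0.443), with Itgb3 itself in the list. Of 12 mast cell and basophil markers 9 had a count and the mast cell protease genes Tpsb2, Tpsab1 and Mcpt4 were at 0, and the list summed to 61.6 to 87.5 CPM in mutants and 72.2 to 85.7 CPM in controls. Its 4 tested genes differed in direction, and none was called. The histamine synthesis gene Hdc, which led the list, had 41.0 ± 8.87 CPM in mutants and 33.5 ± 10.3 CPM in controls (adjusted p = 0.67), and the basophil protease gene Mcpt8 had 10.96 ± 2.75 CPM in mutants and 8.12 ± 2.26 CPM in controls (adjusted p = 0.537). The transcription factor gene Gata2 had 18.7 ± 4.08 CPM in mutants and 32.4 ± 7.53 CPM in controls (adjusted p = 0.176). Its groups did not overlap, as in 2.13% of all tested genes in this direction. The carboxypeptidase gene Cpa3 had 1.60 ± 0.50 and 4.63 ± 3.30 CPM in mutants and controls (adjusted p = 0.259). The part of these cell types in the Itga2b level was not tested.

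**Figure D4:**
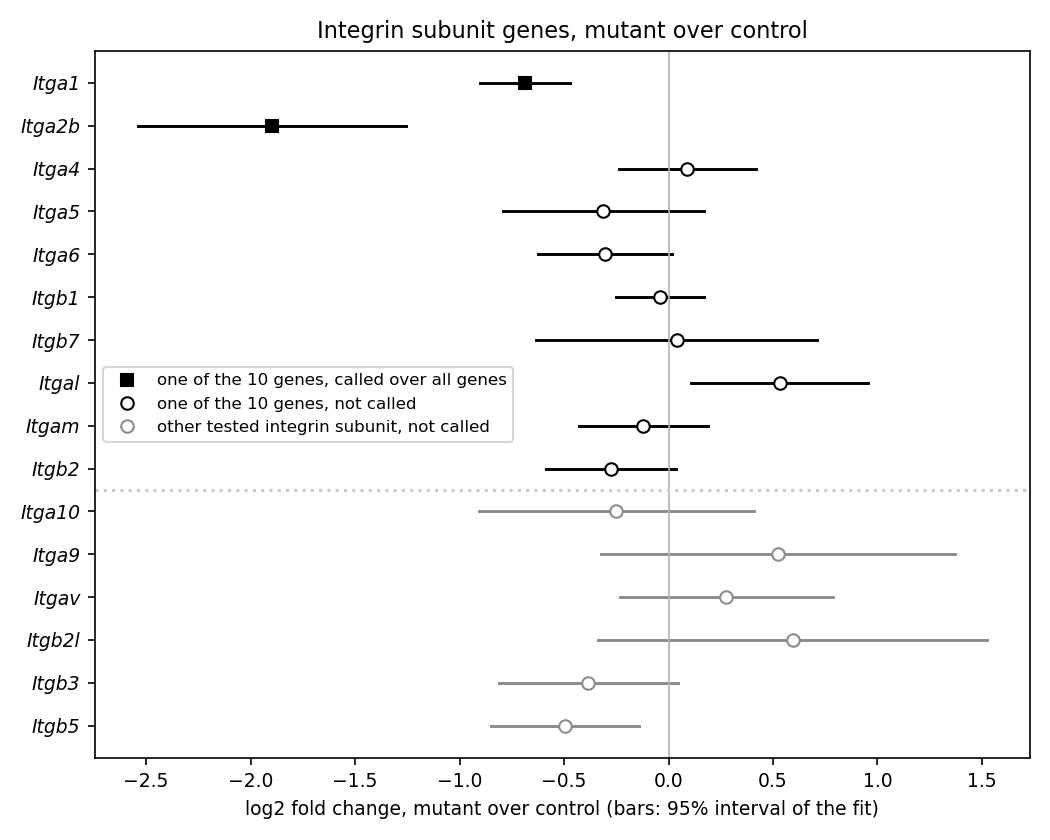
Log2 fold change (mutant over control, edgeR) with its 95% interval for the 10 integrin genes (black) and the 6 other integrin subunit genes that were tested (grey), squares where the gene was called over all genes. Itga1 (-0.69) and Itga2b (-1.90) are the 2 called genes, and the grey points run from -0.50 (Itgb5) to 0.59 (Itgb2l).

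Of the alpha chains that pair with beta 1 or beta 7, only Itga1 was called, and neither beta chain was. Itga4 (chromosome 2, 79255426 to 79333123), the VCAM-1 receptor chain of progenitors and lymphocytes, had 33.8, 30.7, 28.1, 30.6 and 37.7 CPM in mutant mice 6, 7, 8, 10 and 12 and 35.9, 31.9, 20.3 and 32.8 CPM in control mice 1 to 4. Control 3 was lowest of all, and the mutants lay within the range of the controls but for mutant 12, with a log2 fold change of 0.09 (95% interval -0.24 to 0.42). Itga4 shares 7.64% of its 31-base stretches with Cerkl, which runs on the opposite strand over its 3' end and had 2.70 ± 0.62 CPM in mutants and 2.18 ± 0.54 CPM in controls, and 17 of 18 Itga4 library values were not whole. Whether the counting used strand was not given in the sources used here.

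Itga5 (chromosome 15, 103344286 to 103366763), the fibronectin receptor chain, had 2.81, 1.77, 3.30, 3.53 and 3.08 CPM in mutant mice 6, 7, 8, 10 and 12 and 3.32, 4.33, 3.41 and 3.26 CPM in control mice 1 to 4. Mutants 8 and 10 were within the control range and mutant 7 was lowest, with a log2 fold change of -0.31 (95% interval -0.79 to 0.17). Itga6 (chromosome 2, 71745616 to 71858416), the laminin receptor chain, had 30.5, 31.8, 22.05, 20.6 and 31.2 CPM in mutant mice 6, 7, 8, 10 and 12 and 37.2, 35.1, 34.5 and 27.8 CPM in control mice 1 to 4. Control 4 stood below 3 of the mutants, so the groups overlapped, and the log2 fold change was -0.30 (95% interval -0.62 to 0.02).

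Itgb1 (chromosome 8, 128685654 to 128733200), the beta chain shared by the receptors above, varied least of the 10 genes between control mice. It ranged from 52.9 to 67.3 CPM in mutants and from 54.8 to 67.2 CPM in controls, with a coefficient of variation of 10.4% in mutants and 8.87% in controls. The log2 fold change was -0.04 (95% interval -0.25 to 0.17).

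Itgb7 (chromosome 15, 102215995 to 102231944), which pairs with alpha 4 in the MAdCAM-1 receptor of lymphocytes and mast cells, varied most of the 10 between control mice. It had 14.4, 14.0, 7.77, 10.4 and 7.89 CPM in mutant mice 6, 7, 8, 10 and 12 and 5.21, 12.1, 7.49 and 17.4 CPM in control mice 1 to 4. Controls 1 and 4 enclosed all mutants, and the coefficient of variation was 29.4% in mutants and 51.0% in controls. The log2 fold change of 0.04 (95% interval -0.64 to 0.71) has no stable sign, and was -0.18 without control 1 and 0.39 without control 4.

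The genes of the beta 2 receptors were not called. Itgal (chromosome 7, 127296260 to 127335138) encodes alpha L of LFA-1, the ICAM receptor of lymphocytes and other leukocytes. It had 10.3, 13.2, 12.9, 14.1 and 11.7 CPM in mutant mice 6, 7, 8, 10 and 12 and 4.82, 9.86, 9.19 and 10.4 CPM in control mice 1 to 4. The groups overlapped through mutant 6 and control 4 alone, and control 1 was far below the rest. The means were 12.4 ± 1.46 CPM in mutants and 8.56 ± 2.54 CPM in controls, with a log2 fold change of 0.53 (95% interval 0.11 to 0.96) that was 0.34 without control 1 and 0.22 with the log2 total count as a covariate. The first library of mutant 12 had 45 counts of Itgal and the second 153, which is 6.74 and 16.5 CPM, a ratio of 2.44 within a mouse.

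T and NK cells carry LFA-1. Of 16 markers of these cells 13 had a count and Cd3g, Cd4 and Ncr1 were at 0 in every mouse, while the summed level of 104 to 196 CPM in mutants and 90.7 to 144 CPM in controls came mainly from the granule gene Nkg7, at 136 ± 38.7 CPM in mutants and 126 ± 25.6 CPM in controls. The kinase gene Lck, with 131 counts over all mice, had 1.10 ± 0.46 CPM in mutants and 0.35 ± 0.12 CPM in controls (edgeR adjusted p = 0.285). Of the list 2 were tested, Nkg7 and Lck. The other markers had means near or below the floor, some higher and some lower in mutants. The part of such cells in the Itgal level was not tested.

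Itgb2 (chromosome 10, 77530252 to 77565708), the common beta chain of leukocyte integrins, had 170, 196, 119, 141 and 193 CPM in mutant mice 6, 7, 8, 10 and 12 and 184, 223, 181 and 205 CPM in control mice 1 to 4. Mutants 7 and 12 were among the controls and mutants 8 and 10 were well below them, with a log2 fold change of -0.28 (95% interval -0.59 to 0.04). Itgam (chromosome 7, 128062640 to 128118491), CD11b of neutrophils and monocytes, had 86.4, 77.1, 51.5, 61.8 and 76.3 CPM in mutant mice 6, 7, 8, 10 and 12 and 73.5, 84.0, 66.3 and 82.95 CPM in control mice 1 to 4. Mutant 8 was lowest and mutant 6 highest of all, so the mutants enclosed the controls, and the log2 fold change was -0.12 (95% interval -0.43 to 0.19).

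Mutants 8 and 10 were thus the lowest of the 9 mice for Itgam, Itgb2 and Itga6. All 11 neutrophil markers had a count and summed to 229 to 472 CPM in mutants and 453 to 974 CPM in controls. The granule peptide gene Camp led them, at 139 ± 47.7 CPM in mutants and 386 ± 129 CPM in controls (edgeR adjusted p = 0.115). Its groups did not overlap, as in 2.13% of all tested genes in this direction. Of the neutrophil list 10 were tested, with log2 fold changes in both directions, and none was called. The granule gene Ltf went the other way from Camp, at 13.5 ± 4.43 CPM in mutants and 4.82 ± 3.67 CPM in controls (edgeR adjusted p = 0.259). All 13 monocyte and macrophage markers had a count and summed to 799 to 1597 CPM in mutants and 766 to 1542 CPM in controls, led by Ly6c2 at 1132 ± 296 CPM in mutants and 989.98 ± 344 CPM in controls. Their part in the Itgam and Itgb2 levels was not tested. The Itgam counts carry a further uncertainty, since 67.2% of the 31-base stretches of its transcripts are also in the overlapping same-strand gene Gm49368, which had 0.94 ± 0.55 CPM in mutants and 1.67 ± 0.46 CPM in controls.

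Other integrin subunit genes were fitted in the same way. Of 17 listed, 6 were tested, Itga11 and Itgb8 were at 0 in every mouse, and the collagen receptor gene Itga2 had 5 counts over all 9 mice. Of the 6 tested none was called, 3 were above 0 and 3 below, with a median of 0.01 against 0.0089 over all genes, and 1 had an unadjusted p under 0.05, as 9.85% of all tested genes did. This median of few genes was taken over the listed genes that passed the filter in each setting, so the genes behind it changed too. Without control 3 it was 0.439, and without control 2 it was 0.368. Among genes averaging 10 CPM or more it was -0.505, the value of Itgb5 alone. The gene with that p was Itgb5, the beta chain of a vitronectin receptor, at 10.5 ± 1.85 CPM in mutants and 14.7 ± 2.91 CPM in controls (log2 fold change -0.50, 95% interval -0.85 to -0.14, edgeR adjusted p = 0.351). Its partner Itgav had a log2 fold change of 0.28 (95% interval -0.23 to 0.79) and Itgb2l, a paralog of Itgb2, one of 0.59 (95% interval -0.34 to 1.53).

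Genes that work with integrins were fitted with all genes and none was called at an adjusted p under 0.05 by edgeR. Of 22 regulators of integrin activation 18 were tested, 6 above 0 and 12 below with a median of -0.105, and 0 were higher and 1 lower at an unadjusted p under 0.05, where 9.85% of all tested genes were past it in either direction. Cyth1, encoding the beta 2 regulator cytohesin-1, had 24.1 ± 2.75 CPM in mutants and 30.1 ± 2.64 CPM in controls, with no overlap, as in 2.13% of all tested genes in this direction (log2 fold change -0.32, SE 0.11, adjusted p = 0.358). The RAP1 effector gene Rassf5 had a log2 fold change of -0.18 (SE 0.10, adjusted p = 0.572). Of 32 genes of the adhesion complex and its signalling 26 were tested, 7 above 0 and 19 below with a median of -0.0964, and 1 was higher and 1 lower at an unadjusted p under 0.05, beside the same 9.85%.

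In the adhesion complex list the smallest p-values belonged to Zyx and Actn1, which encode actin-binding proteins of adhesion sites. Zyx had 114 ± 11.6 CPM in mutants and 141 ± 12.6 CPM in controls (edgeR adjusted p = 0.345), and Actn1 8.82 ± 3.08 CPM in mutants and 5.33 ± 1.3 CPM in controls (adjusted p = 0.388). Of 14 membrane partners all were tested, 7 above 0 and 7 below with a median of -0.004, and 0 were higher and 2 lower at an unadjusted p under 0.05, again beside 9.85%. These were the tetraspanin genes Cd63, at 699 ± 73.6 CPM in mutants and 863 ± 83.9 CPM in controls (adjusted p = 0.369), and Cd9, at 14.8 ± 2.04 CPM in mutants and 18.1 ± 1.3 CPM in controls (adjusted p = 0.44), and the groups overlapped for neither, beside 2.13% of all tested genes that were wholly lower.

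Few integrin ligands were found in the sorted cells, with 6 of 23 tested and Madcam1, Lama4 and the fibrinogen genes Fga, Fgb and Fgg at 0 in every mouse. Of the 6, 3 were above 0 and 3 below with a median of -0.0356, and 0 were higher and 2 lower at an unadjusted p under 0.05, beside 9.85% of all tested genes in either direction. Col4a1, a collagen IV chain and thus a ligand type of alpha 1 beta 1, had 5.42 ± 2.61 CPM in mutants and 11.5 ± 1.42 CPM in controls. Its groups did not overlap, as in 2.13% of all tested genes in this direction, and its log2 fold change was -1.09 (SE 0.31). By edgeR its adjusted p was 0.302, while DESeq2 called it. The fibronectin gene Fn1 had 1.80 ± 0.48 CPM in mutants and 3.11 ± 0.64 CPM in controls (adjusted p = 0.334). Vcam1, Icam1 and Icam2 had overlapping groups.

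The genes with values most like those of Itga1 and Itga2b were sought among 9124 others that averaged 5 CPM or more, by the root mean square difference over the 9 mice of log2(CPM + 0.5) less the control mean. For Itga1 they were Gm20492 (0.103), the transcription factor gene Arid3b (0.133) and 2510046G10Rik (0.152). For Itga2b they were the chromatin remodeller gene Chd3 (0.253), the ficolin gene Fcnb (0.307) and the N-acetylaspartate synthase gene Nat8l (0.391).

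By edgeR both calls lay near the threshold, and were lost when almost any single mouse was omitted. In 9 fits with a different mouse omitted from each, Itga1 was called only without control 1, and Itga2b in none, while the log2 fold changes stayed between -0.77 and -0.64 for Itga1 and between -2.08 and -1.76 for Itga2b. Neither was called with the log2 total count, which was larger in most mutants, as a covariate, with log2 fold changes of -0.75 and -1.48. Where all mutants lie below all controls, dropping any mouse cannot change the sign, so the signs are no evidence of stability.

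**Figure D5:**
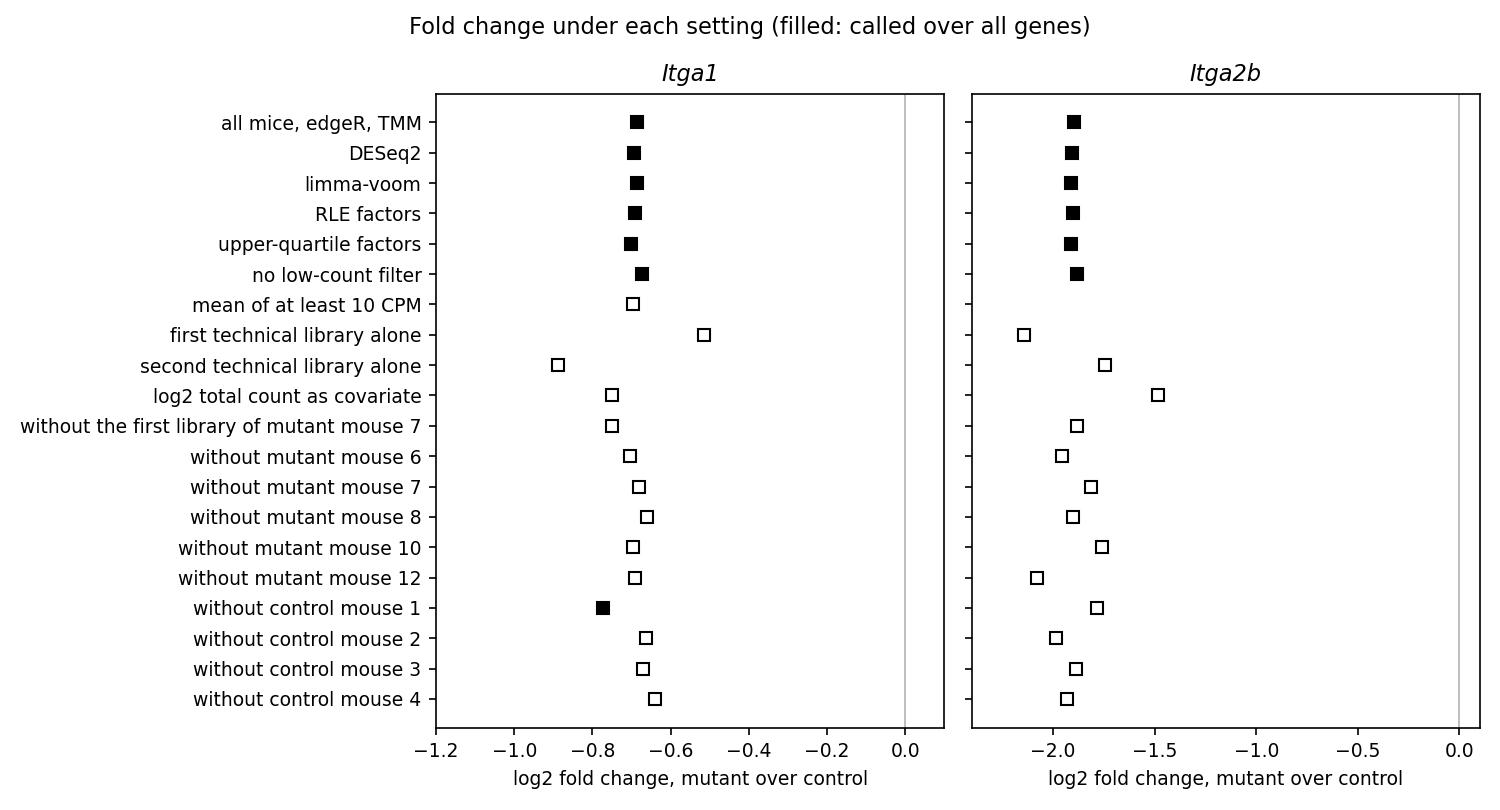
Log2 fold change (mutant over control) of Itga1 and Itga2b with all mice and under each alternative, filled where it was called (adjusted p under 0.05). Values stay below 0 throughout (-0.89 to -0.52 for Itga1, -2.14 to -1.48 for Itga2b), Itga2b has no value among genes averaging 10 CPM or more, and only Itga1 is called when a mouse is left out, without control 1.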

How the data were processed

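The authors deposited 1 table of estimated counts for 54347 genes in 18 libraries, in which 11.3% of values are not whole. Salmon 1.3, bcl2fastq, FastQC and GRCm38 appear in the submitters' processing notes, without role or order. The annotation, use of molecular identifiers, strand setting and summing to genes were not given in the sources used here. To name genes, the first 18 characters of each ID were matched to GENCODE M21 (54094 matched, 253 not). The mouse was the replicate, with its deposited estimated counts added over 2 technical libraries, then rounded. The p-values thus weigh the group difference against the spread between mice, which is estimated partly from all genes. All genes were fitted by edgeR 4.0.16 (R 4.3.3) with its quasi-likelihood test, TMM factors, no covariate and genes kept by filterByExpr at a minimum count of 10, and the script was tested on simulated data. SE was taken from the log2 fold change and its F statistic, and 95% intervals use that SE. Alternatives used DESeq2 1.42.0, limma 3.58.1, other scalings, filters, library sets and left-out mice.

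The 10 genes and the lists were chosen with earlier results of these data known. From each list the text names the genes past the threshold, otherwise the 2 with the smallest p. It also names Itgb3, Itgb2l, genes with counts that overlap the 10, and markers at 0 or leading a list. The 3 genes most like Itga1 and Itga2b are named too. Itgav, Itga2, Itga11, Itgb8, Vcam1, Icam1, Icam2, the ligands at 0, Kit, Flt3, Hoxa9, Pf4, Lepr, Car1, Mcpt8, Gata2, Cpa3, Ltf and Lck were named after their values were seen. For the marker lists the text gives counts, sums, some directions and these genes only, and 1 marker was left out of the lists.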

Additional observations from a re-analysis of the deposited data

Results flagged for a closer look

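In the 20 sets of values checked (10 genes in mutants and in controls), 1 mouse stood apart from its group. Control mouse 2 had the highest Itga5 level of its group, 4.33 CPM, against 3.26 to 3.41 CPM in the other controls. Chance gives such a mark in about 1 of 20 sets.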

How the results depend on the processing

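No paired analysis was possible because mouse numbers differ between the groups. From 9 called genes, 2 of them integrin genes, DESeq2 gave 93 and no low-count filter 22, each with Itga1 and Itga2b among them. The counts of all called genes and of called integrin genes were 0 and 0 among genes averaging 10 CPM or more, 0 and 0 in the first libraries, 3 and 0 in the second libraries, 0 and 0 with the log2 total count as covariate, and 0 and 0 without the first library of mutant mouse 7. Leaving out a mouse gave 0 to 7 called genes and 0 to 1 integrin genes. Of the genes that work with integrins, DESeq2 called 1, Col4a1, and leaving out a mouse called 0. The sign differed from that reported in 6 of 19 alternatives for Itgb7, 2 for Itga4 and 1 for Itgb1, and in none for the other 7 integrin genes. The median log2 fold change of the other integrin genes was 0.01 over the 6 tested as reported. Over those tested in each setting it was 0.263 without the low-count filter and -0.292 and -0.367 in the first and second libraries. It was -0.062 to 0.439 with a mouse left out. Among genes averaging 10 CPM or more it was -0.505, from Itgb5 alone. The genes tested differ between filters, so these medians are not of the same genes throughout. Fewer reads (library sets) and fewer mice lower what can be called, and other causes were not tested. Itga2b rests on 7 to 17 counts per mutant mouse, which limits its precision.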
